A study of Mus musculus with 6 samples.

Results

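A set of 10 genes that mark the hormone-producing cells of the anterior and intermediate pituitary were followed through 6 RNA sequencing libraries of mouse brainstem. They comprised Gh, Prl, Pomc, Cga, Lhb and Tshb, which encode hormones or hormone subunits, Ghrhr, a hormone receptor, and Pou1f1, Pitx1 and Tbx19, which encode transcription factors. Of these 10 genes, 8 had a row among the 18058 genes of the deposited table, while the levels of Pou1f1 and Ghrhr were not analysed here. The genes were chosen with their levels in these 6 libraries known, so their levels and group differences are given as a description without a test. Each library came from snap-frozen whole brainstem of 1 mouse at 1 month of age, with 3 wild type (WT) mice and 3 Rag1-/- mice, which carry a germline loss of Rag1 in every cell and lack mature T and B cells. No mouse had been injected with cells, and the strains were C57BL/6J for WT and B6.129S7-Rag1tm1Mom/J for Rag1-/-.

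The pituitary gland hangs below the hypothalamus at the base of the brain and is not part of the brainstem. Its somatotrophs make growth hormone, its lactotrophs prolactin, its thyrotrophs and gonadotrophs glycoprotein hormones built from a common alpha subunit and a specific beta subunit, and its corticotrophs and melanotrophs peptides cut from pro-opiomelanocortin. POU1F1 activates growth hormone, prolactin and thyrotropin beta genes, TBX19 acts with PITX1 on Pomc, and NR5A1 acts in gonadotrophs. Pomc is also transcribed by neurons of the hypothalamus and of the nucleus of the solitary tract, the latter within the brainstem.

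The 250 bases before the start are shown for Prl, Pomc and Cga, the genes whose ratios to Gh are set side by side below. The part of these sequences in the ratios was not tested. The sequences are from RefSeq on GRCm38.p6, which shares its coordinates with mm10, and all 3 lie on the plus strand. Prl is at chr13:27057320-27057569, Pomc at chr12:3954695-3954944 and Cga at chr4:34893529-34893778. Capitals mark matches, on either strand, to ATGNATA, a form of the POU1F1 motif, or to AAGGTCA, a form of the NR5A1 motif, and no match of one motif overlaps a match of the other.
Prl: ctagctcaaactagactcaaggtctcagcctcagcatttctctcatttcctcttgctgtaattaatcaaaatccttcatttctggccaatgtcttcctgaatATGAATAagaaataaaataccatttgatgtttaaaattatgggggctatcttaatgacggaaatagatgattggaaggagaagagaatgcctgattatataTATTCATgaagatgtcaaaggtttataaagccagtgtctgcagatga
Pomc: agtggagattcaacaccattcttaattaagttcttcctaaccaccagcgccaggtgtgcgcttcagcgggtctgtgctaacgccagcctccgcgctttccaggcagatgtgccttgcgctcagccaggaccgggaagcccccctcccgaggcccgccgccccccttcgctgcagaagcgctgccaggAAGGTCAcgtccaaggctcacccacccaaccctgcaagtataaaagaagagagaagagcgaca
Cga: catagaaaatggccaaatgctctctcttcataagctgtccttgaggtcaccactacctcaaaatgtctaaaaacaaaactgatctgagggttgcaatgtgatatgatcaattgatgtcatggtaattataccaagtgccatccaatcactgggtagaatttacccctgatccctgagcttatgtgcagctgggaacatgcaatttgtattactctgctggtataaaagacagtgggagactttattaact
Prl holds 2 matches to the POU1F1 motif, 148 and 47 bases before the start, and Pomc holds 1 match to the NR5A1 motif 63 bases before the start, whereas Cga holds neither. Promoters were found for 7 of the 10 genes (Prl, Pomc, Cga, Lhb, Tshb, Pou1f1 and Tbx19). The POU1F1 motif occurs in 2 of these 7 genes (Prl and Pou1f1) and the NR5A1 motif in 2 (Pomc and Lhb), compared with 7.92% and 4.08% of 32851 promoters of the same length. The units differ, because the former are counted by gene and the latter by promoter. Pou1f1 has 2 promoters, and promoter 2 holds no match. These matches describe the letters of the sequence and not binding.

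Levels are in CPM, gene counts that the authors scaled to the size of the library. The estimated depth was 31600000 to 46400000 reads per library, at which 3 reads correspond to 0.0646 to 0.0950 CPM. Values at or under 3 reads are treated as the floor of detection, and intervals below are exact 95% Poisson or binomial intervals that cover counting error only. Rag1 itself was at 0.236, 0.388 and 0.115 CPM for WT replicates 1, 2 and 3 and at 2.60, 4.02 and 2.90 CPM in the labelled Rag1-/- libraries, so it was higher where the label names a loss. A gene-level count does not separate transcripts of an intact from those of a disrupted allele, and these libraries are therefore named by their label. WT replicates 1 and 2 were high for the X-linked Xist (172 and 177 CPM, against 0.462 to 2.93 CPM elsewhere), whereas the other 4 libraries were high for the Y-linked Ddx3y (45.2 to 56.2 CPM, against 0.283 and 0.215 CPM). The labels give no sex, and WT replicate 3 is thus the only WT library whose sex-linked transcripts resemble those of the labelled Rag1-/- libraries.

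The tissue label was examined with 8 genes of brainstem neurons and of hindbrain position, all of which were detected. Their summed level was 91.0, 126 and 64.3 CPM for WT replicates 1, 2 and 3 and 156, 64.2 and 101 CPM in labelled Rag1-/- replicates 1, 2 and 3. The noradrenergic genes Dbh and Slc6a2 spanned only 14.8 to 19.2 CPM and 15.0 to 20.8 CPM over the 6 libraries. In contrast, Hoxa5, a positional gene of the caudal hindbrain and spinal cord, was at 5.05, 7.30 and 2.04 CPM in WT and at 9.93, 0.349 and 7.43 CPM in the labelled Rag1-/- libraries. WT replicate 3 and labelled Rag1-/- replicate 2 were therefore the lowest for Hoxa5, and Hoxa2 and Hoxb3 had the same 2 lowest libraries. These 5 genes of the list were picked out with their values known.

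The pituitary transcripts were concentrated in 2 WT libraries. Summed over the 8 genes, they reached 3.59 CPM in WT replicate 1, 57.6 CPM in WT replicate 2 and 659 CPM in WT replicate 3. In labelled Rag1-/- replicates 1, 2 and 3 the sum was 2.83, 5.64 and 3.19 CPM. The sum was thus 0.0659% of the library in WT replicate 3 and at most 0.00576% in every other library. WT replicate 1 lay within the range of the labelled Rag1-/- libraries, so the groups overlap. In group means the sum was 240.1 ± 364 CPM (SD, n = 3) in WT and 3.89 ± 1.53 CPM (SD, n = 3) in the labelled Rag1-/- libraries, and the WT standard deviation exceeds the WT mean. Each library is whole tissue, in which fewer cells of a type and less RNA per cell cannot be told apart. Estimated depth was 42400000, 46400000 and 34800000 reads for WT replicates 1, 2 and 3 and 34600000, 31600000 and 35100000 reads for labelled Rag1-/- replicates 1, 2 and 3, and its part in the sum was not tested.

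**Figure D1:**
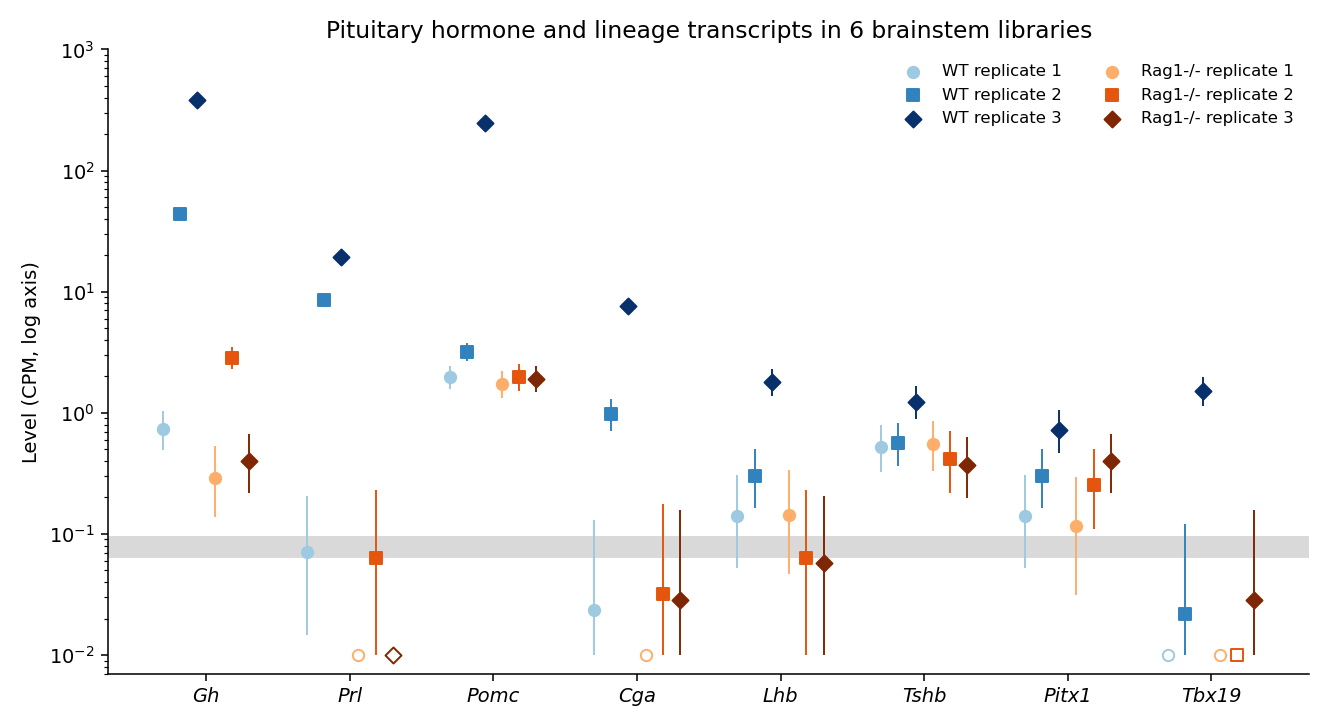
Level of 8 pituitary transcripts in each library (CPM, log axis), with 95% Poisson intervals for counting error as lines, whose parts under 0.01 CPM are not drawn. Open symbols at the bottom are libraries listed at 0, and the grey band spans 3 reads in the 6 libraries (0.0646 to 0.0950 CPM). WT replicate 3 is the highest library for all 8 transcripts.

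WT replicate 3 was the highest library for 8 of 8 transcripts, compared with 28.7% of the 16762 genes whose mean level reached 0.1 CPM. WT replicate 3 followed by WT replicate 2 was the order for 6 of 8, compared with 7.11% of these genes. The exceptions were Pitx1 and Tbx19. Since the genes were chosen with these values known, the counts describe the choice and are no test.

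Growth hormone (Gh, chromosome 11, 106300261 to 106301896, minus strand), the product of somatotrophs, had the highest level per kilobase of the transcripts in WT replicates 2 and 3 and in labelled Rag1-/- replicate 2. It was at 0.732, 43.8 and 381 CPM for WT replicates 1, 2 and 3. The libraries labelled Rag1-/- had 0.289, 2.85 and 0.399 CPM. These correspond to 31, 2034 and 13262 reads in the WT libraries and 10, 90 and 14 reads in the labelled Rag1-/- libraries, so Gh was above 3 reads in every library. The order ran from WT replicate 3 through WT replicate 2 and labelled Rag1-/- replicate 2 to WT replicate 1, each step being larger than the counting intervals. Below it, labelled Rag1-/- replicate 3 (0.218 to 0.669 CPM) and WT replicate 1 (0.497 to 1.04 CPM) overlapped in their intervals, as did labelled Rag1-/- replicates 3 and 1. The groups overlapped, because labelled Rag1-/- replicate 2 exceeded WT replicate 1.

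Prolactin (Prl, chromosome 13, 27057570 to 27065203, plus strand), made by lactotrophs, was close to absent outside the same pair of WT libraries. It was at 0.0709, 8.49 and 19.2 CPM for WT replicates 1, 2 and 3, which correspond to 3, 394 and 668 reads. In the labelled Rag1-/- libraries it was listed at 0 in replicates 1 and 3 and stood at 0.0635 CPM, 2 reads, in replicate 2. It was the only 1 of the 8 transcripts for which each WT library exceeded each labelled Rag1-/- library, an order found for 14.4% of all tested genes, and the lowest WT library was above the highest labelled Rag1-/- library by 1 read before scaling. At this depth WT replicate 1 and the labelled Rag1-/- libraries were all at or under the floor.

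Pro-opiomelanocortin (Pomc, chromosome 12, 3954945 to 3960643, plus strand), the precursor of corticotropin and melanotropin, differed from Gh and Prl in its lower libraries. Its level was 1.96, 3.19 and 246 CPM for WT replicates 1, 2 and 3 and 1.73, 1.96 and 1.91 CPM in labelled Rag1-/- replicates 1, 2 and 3. WT replicate 1 and the labelled Rag1-/- libraries thus shared a level of 1.73 to 1.96 CPM, from 60 to 83 reads, with overlapping intervals. WT replicate 2, with 148 reads and an interval of 2.69 to 3.74 CPM, lay above the interval of each of these 4 libraries, of which the highest bound was 2.52 CPM. WT replicate 3 was 77.1-fold above WT replicate 2. Unlike Prl and Cga, Pomc was well above the floor in every library.

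The alpha subunit shared by thyrotropin, luteinizing hormone and follicle-stimulating hormone (Cga, chromosome 4, 34893779 to 34907374, plus strand) followed Gh most closely in its ratio. It was at 0.0237, 0.969 and 7.56 CPM for WT replicates 1, 2 and 3, or 1, 45 and 263 reads. Labelled Rag1-/- replicate 1 was listed at 0, and replicates 2 and 3 had 1 read each (0.0318 and 0.0286 CPM). Only WT replicates 2 and 3 were therefore above the floor. The luteinizing hormone beta subunit (Lhb, chromosome 7, 45420946 to 45421854, plus strand), made by gonadotrophs, was at 0.142, 0.302 and 1.78 CPM in WT and at 0.144, 0.0635 and 0.0570 CPM in the labelled Rag1-/- libraries. Lhb was at 2 reads, under the floor, in labelled Rag1-/- replicates 2 and 3. WT replicate 3, with 62 reads, had an interval clear of all others, whereas WT replicate 2, with 14 reads, overlapped WT replicate 1 and the labelled Rag1-/- libraries. The thyrotropin beta subunit (Tshb, chromosome 3, 102777398 to 102782714, minus strand), made by thyrotrophs, varied least. It was at 0.519, 0.560 and 1.24 CPM in WT and at 0.549, 0.412 and 0.370 CPM in the labelled Rag1-/- libraries, with 13 to 43 reads, and all libraries except WT replicate 3 had mutually overlapping intervals.

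Of the transcription factor genes, 2 had values. Tbx19 (chromosome 1, 165137853 to 165160773, minus strand), the regulator of Pomc in corticotrophs and melanotrophs, was at 1.52 CPM, 53 reads, in WT replicate 3. It had 1 read each in WT replicate 2 (0.0216 CPM) and labelled Rag1-/- replicate 3 (0.0286 CPM) and was listed at 0 in the other 3 libraries. WT replicate 3 was thus the only library above the floor for Tbx19. Pitx1 (chromosome 13, 55825054 to 55831425, minus strand), a homeobox gene of the early pituitary and of the hindlimb, was at 0.142, 0.302 and 0.719 CPM in WT and at 0.116, 0.254 and 0.399 CPM in the labelled Rag1-/- libraries. Its second highest library was labelled Rag1-/- replicate 3, with an interval of 0.218 to 0.669 CPM that overlapped that of WT replicate 3 (0.465 to 1.06 CPM).

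Levels of different genes were compared per kilobase of transcript. In WT replicate 3, Gh stood at 442 CPM per kilobase, Pomc at 236, Prl at 21.5 and Cga at 11.0, with Lhb at 2.63, Tshb at 2.04, Tbx19 at 0.573 and Pitx1 at 0.293 CPM per kilobase. In WT replicate 2, Gh at 50.8 CPM per kilobase was followed by Prl at 9.48 and then Pomc at 3.06. The second place after Gh was therefore held by Pomc in one library and Prl in the other. In WT replicate 1 and in labelled Rag1-/- replicates 1 and 3, Pomc was the highest, at 1.88, 1.66 and 1.83 CPM per kilobase.

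**Figure D2:**
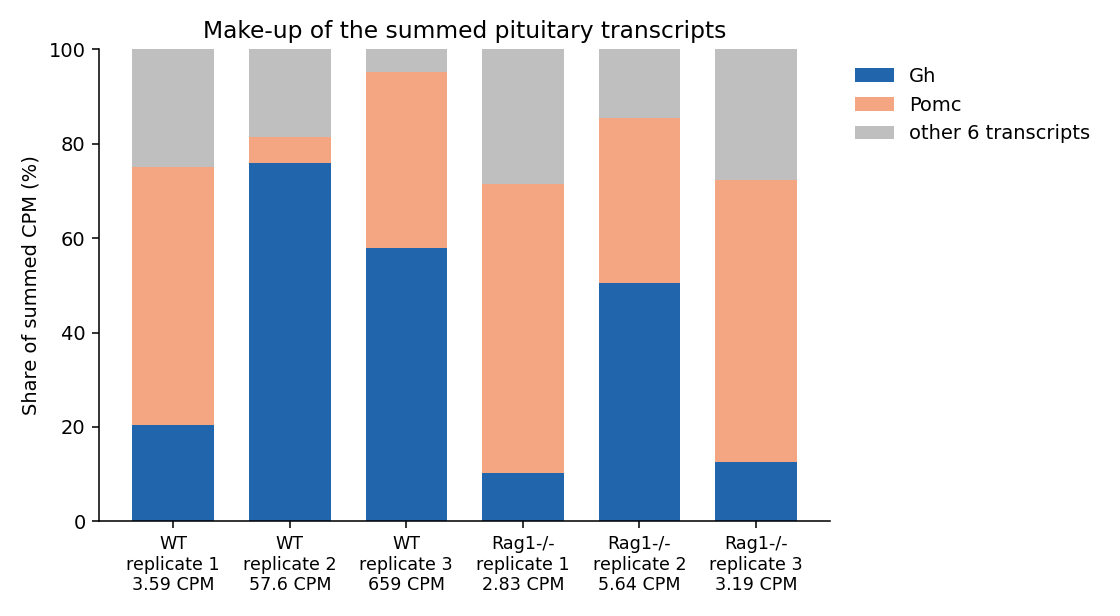
Share of the summed CPM of the 8 pituitary transcripts that is Gh, Pomc or the other 6 transcripts, by library, with the sum printed under each bar. Pomc makes up 5.53% of the sum in WT replicate 2 and 37.3% in WT replicate 3. In all libraries except these, Pomc was at 1.73 to 1.96 CPM, a level that is not subtracted.

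The make-up of the pituitary transcripts differed between the libraries. Gh held 76.0% of the sum in WT replicate 2 and 57.8% in WT replicate 3, and Pomc held 5.53% and 37.3%. In labelled Rag1-/- replicate 2, Gh held 50.6% and Pomc 34.8%. In WT replicate 1 and in labelled Rag1-/- replicates 1 and 3, Gh held 20.4%, 10.2% and 12.5% and Pomc 54.6%, 61.2% and 59.8%. In these libraries and in labelled Rag1-/- replicate 2, Pomc stayed at 1.73 to 1.96 CPM, whereas Gh ranged from 0.289 to 2.85 CPM. The shares in these libraries therefore moved with Gh. Pomc of WT replicate 2, at 3.19 CPM, was not corrected for this level. Per length, Prl amounted to 18.7% of Gh in WT replicate 2 (95% interval 16.7 to 20.8%) and 4.85% of Gh in WT replicate 3 (4.48 to 5.24%). Pomc amounted to 6.01% of Gh in WT replicate 2 (5.05 to 7.11%) and 53.3% of Gh in WT replicate 3 (51.9 to 54.8%). Cga amounted to 2.78% of Gh in WT replicate 2 (2.02 to 3.73%) and 2.49% in WT replicate 3 (2.19 to 2.81%). The intervals of the former 2 ratios do not overlap between the libraries, whereas those of Cga do. WT replicate 2 is high for Xist and WT replicate 3 for Ddx3y, and the part of sex in these ratios was not tested. The part of Pomc from brain neurons in these shares and ratios was not tested either.

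**Figure D3:**
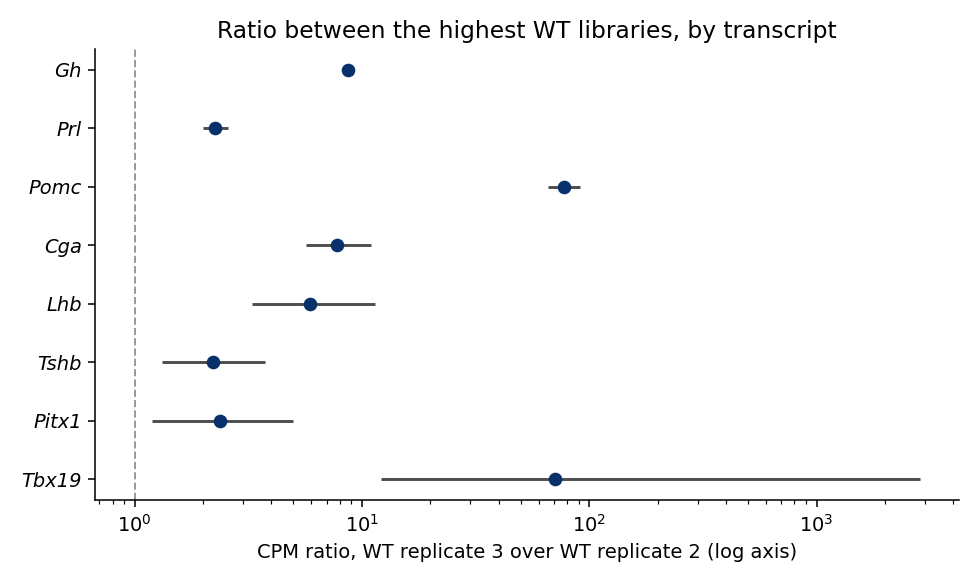
CPM of WT replicate 3 divided by that of WT replicate 2 for each pituitary transcript (log axis), with exact 95% binomial intervals for counting error as lines. Ratios range from 2.21 for Tshb to 77.1 for Pomc, and the interval of Tbx19 rests on 1 read in WT replicate 2.

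Expressed as the ratio of WT replicate 3 to WT replicate 2, the transcripts differed by more than counting error. The ratio was 8.70 for Gh (95% interval 8.30 to 9.12), 7.80 for Cga (5.67 to 11.0) and 5.91 for Lhb (3.27 to 11.4), whose intervals overlap. It was 2.26 for Prl (1.99 to 2.57), 2.21 for Tshb (1.33 to 3.74) and 2.38 for Pitx1 (1.19 to 4.96). Both transcripts of the corticotroph and melanotroph lineage had the greatest ratios, 77.1 for Pomc (65.6 to 91.4) and 70.7 for Tbx19 (12.2 to 2846). For Tbx19 the single read in WT replicate 2 gives an interval that spans more than 2 orders of magnitude. Levels outside WT replicates 2 and 3 were not subtracted. There, Tshb was at 0.370 to 0.549 CPM, beside 0.560 CPM in WT replicate 2. Pitx1 was likewise at 0.116 to 0.399 beside 0.302 CPM, Lhb at 0.0570 to 0.144 beside 0.302 CPM, and Pomc at 1.73 to 1.96 beside 3.19 CPM. The ratios of these transcripts therefore hold a level also found in other libraries. Gh (at most 2.85 CPM) and Prl (at most 0.0709 CPM) lay far lower there than in WT replicate 2.

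The question of the study's design is whether the brainstem transcriptome differs between genotypes, and the difference of the labelled Rag1-/- libraries minus WT was fitted for all genes with limma-trend on log2(CPM + 0.1), a scale that understates the change of low transcripts. The fitted log2 differences were -4.86 (SE 1.88) for Gh, -4.69 (SE 1.46) for Prl, -3.07 (SE 1.20) for Cga and -2.59 (SE 1.50) for Pomc. They were -1.62 (SE 0.67) for Lhb, -1.31 (SE 0.93) for Tbx19, -0.60 (SE 0.32) for Tshb and -0.35 (SE 0.48) for Pitx1. The pseudocount moved several of these by over 1.5 times, Prl from -2.53 at a pseudocount of 1 to -6.92 at 0.01, Cga from -1.34 to -4.64, Lhb from -0.56 to -2.27, Tbx19 from -0.44 to -2.32, Tshb from -0.27 to -0.69 and Pitx1 from -0.13 to -0.45. All 8 differences were negative, with a median of -2.11 beside -0.05 over all 16762 tested genes. The choice of the genes used this contrast, so no test of the 8 is given and nothing is read from their shared sign.

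Leaving out WT replicate 3 brought the difference to -2.86 (SE 1.48) for Gh, -3.36 (SE 1.32) for Prl, -1.61 (SE 0.79) for Cga, -0.76 (SE 0.39) for Lhb, -0.40 (SE 0.21) for Pomc and -0.25 (SE 0.25) for Tshb, and turned that of Pitx1 to 0.11 (SE 0.42). Tbx19 was then under the filter. Leaving out WT replicate 1 gave -7.28 for Gh, -6.77 for Prl, -3.85 for Pomc, -4.58 for Cga, -2.24 for Lhb, -2.03 for Tbx19, -0.80 for Tshb and -0.77 for Pitx1. With a term for Xist over 100 CPM, in which WT replicate 3 is the only WT library compared, the difference was -8.84 for Gh, -7.36 for Prl, -6.97 for Pomc, -6.01 for Cga, -3.90 for Tbx19, -3.35 for Lhb, -1.31 for Tshb and -1.28 for Pitx1. Without WT replicates 2 and 3, a choice made after seeing the data that leaves 1 WT library assumed to vary like the others, the difference was -0.00232 (SE 0.94) for Gh, -0.07 (SE 0.21) for Pomc, -0.39 (SE 0.52) for Lhb, -0.20 (SE 0.36) for Tshb and 0.48 (SE 0.53) for Pitx1. Prl, Cga and Tbx19 were under the filter in this fit.

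**Figure D4:**
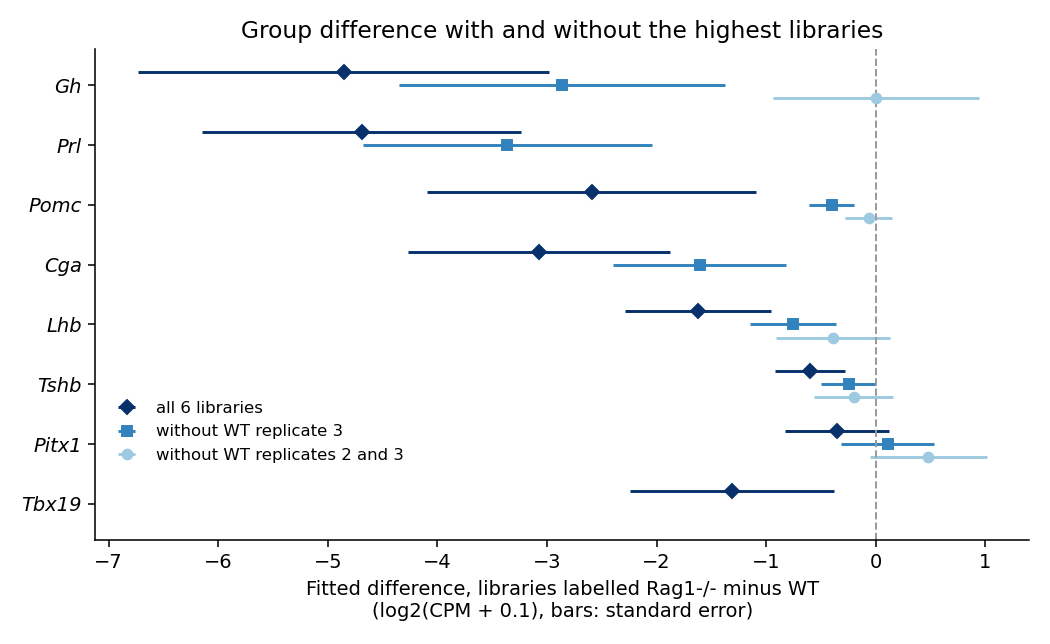
Fitted difference of the labelled Rag1-/- libraries minus WT for each pituitary transcript on the log2(CPM + 0.1) scale, with standard errors as bars, for all 6 libraries, without WT replicate 3 and without WT replicates 2 and 3. A missing symbol marks a transcript under a mean of 0.1 CPM in that fit, and the difference of Gh goes from -4.86 to -2.86 to -0.00232.

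Further genes of the pituitary were examined as 3 lists, which the choice of the 10 genes did not include. Of 28 tested genes, 0 passed limma-trend at an adjusted p under 0.05, compared with 8 of 16762 genes (0.0477%), and 3 had an unadjusted p under 0.05 in the direction of lower levels in the labelled Rag1-/- libraries (9.29% of all genes), with 0 in the other direction (2.27% of all genes). These 3 were Crhr1, Pam and Scg2. The unadjusted limma-trend count depended on the libraries used. Without WT replicate 1 it was 9 lower and 1 higher of 29 tested, beside 1188 lower and 285 higher of 16760 genes. When any other single library was left out, 2 to 5 were lower, beside 870 to 1631 of all genes. The median log2 difference was -0.28 over 6 hormone and receptor genes, -0.12 over 13 transcription factor genes and -0.13 over 9 secretory granule genes. Gnrhr, Avpr1b and Hesx1 were not analysed here.

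Among hormone and receptor genes, the somatostatin receptor gene Sstr5 was at 0.684, 0.883 and 1.15 CPM in WT and at 0.520, 0.570 and 0.797 CPM in the labelled Rag1-/- libraries (log2 difference -0.46, SE 0.24, adjusted p = 0.495 by limma-trend). The corticotropin-releasing hormone receptor gene Crhr1, which is also active in brain neurons, was at 13.3, 15.3 and 16.2 CPM in WT and at 11.7, 9.60 and 12.8 CPM in the labelled Rag1-/- libraries (log2 difference -0.40, SE 0.12, adjusted p = 0.340 by limma-trend). The oestrogen receptor gene Esr1 spanned 2.95 to 4.74 CPM, with WT replicate 3 highest. Fshb, the beta subunit of follicle-stimulating hormone, was under the filter and was picked out with its values known. It was at 0.575 CPM in WT replicate 3 and listed at 0 in the other 5 libraries.

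Transcription factor genes included some that were near 0 outside the same pair of WT libraries. Nr5a1, a gonadotroph factor also found in the ventromedial hypothalamus, was listed at 0 in WT replicate 1, at 0.151 CPM in WT replicate 2 and at 2.07 CPM in WT replicate 3, and did not exceed 0.0318 CPM in the labelled Rag1-/- libraries. Six6, a homeobox gene of the eye, hypothalamus and pituitary, was at 0.0863 CPM in WT replicate 2 and 1.24 CPM in WT replicate 3, and did not exceed 0.0318 CPM elsewhere. Both had the order of libraries seen for Gh at the top. Neurod1, which is active in corticotrophs and in many neurons, was instead at 26.2 CPM in WT replicate 3 and 11.6 CPM in labelled Rag1-/- replicate 2, with 3.66 to 5.22 CPM in the other 4 libraries. WT replicate 3 was the highest library for 8 of the 13 genes.

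Secretory granule genes, which neurons share with endocrine cells, varied little. Pam, which amidates peptides, spanned 121 to 172 CPM with each WT library above each labelled Rag1-/- library (log2 difference -0.26, SE 0.07, adjusted p = 0.335 by limma-trend). The prohormone convertase genes Pcsk1 and Pcsk2 spanned 14.6 to 19.5 CPM and 169 to 214 CPM. The summed level of the 9 granule genes was 2952 to 3294 CPM over the 6 libraries, and its highest library was WT replicate 1, not WT replicate 3. The largest part of this sum was Cpe, at 1495 to 1797 CPM and itself highest in WT replicate 1. Counted by gene, WT replicate 3 was highest for 4 of the 9 and WT replicate 1 for 2.

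Genes of the hypothalamus and posterior lobe, which adjoin the anterior pituitary, had their highest summed level in WT replicate 3, as the pituitary transcripts did, whereas WT replicate 2 was the second lowest library for this sum. Their summed level, over 15 genes of which none was at 0 in all libraries, was 192, 153 and 377 CPM for WT replicates 1, 2 and 3 and 148, 257 and 167 CPM in labelled Rag1-/- replicates 1, 2 and 3. WT replicate 3 was highest for 10 of the 14 that passed the filter, and WT replicate 2 for 0. Vasopressin (Avp), picked out with its values known, was at 2.92, 1.44 and 85.2 CPM in WT and 0.458, 4.61 and 0.562 CPM in the labelled Rag1-/- libraries. Oxytocin (Oxt), picked out likewise, was at 0.688, 0.647 and 31.8 CPM in WT and 0.0334, 2.14 and 0.178 CPM in the labelled Rag1-/- libraries. For these posterior lobe hormones WT replicate 2 lay below labelled Rag1-/- replicate 2, the reverse of their order for Gh. Melanin-concentrating hormone (Pmch), of the lateral hypothalamus, was at 67.1 CPM in WT replicate 3 and 71.6 CPM in labelled Rag1-/- replicate 2 against 16.8 to 26.7 CPM elsewhere. Somatostatin (Sst), which is made in many brain regions, spanned only 71.8 to 85.6 CPM. By limma-trend 0 of the 14 had an adjusted p under 0.05 and 1 (Gnrh1) an unadjusted p under 0.05, lower in the labelled Rag1-/- libraries, a share near the 9.29% of all genes in this direction. The part of hypothalamic tissue in the levels of Pomc, Nr5a1 and Six6 was not tested.

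**Figure D5:**
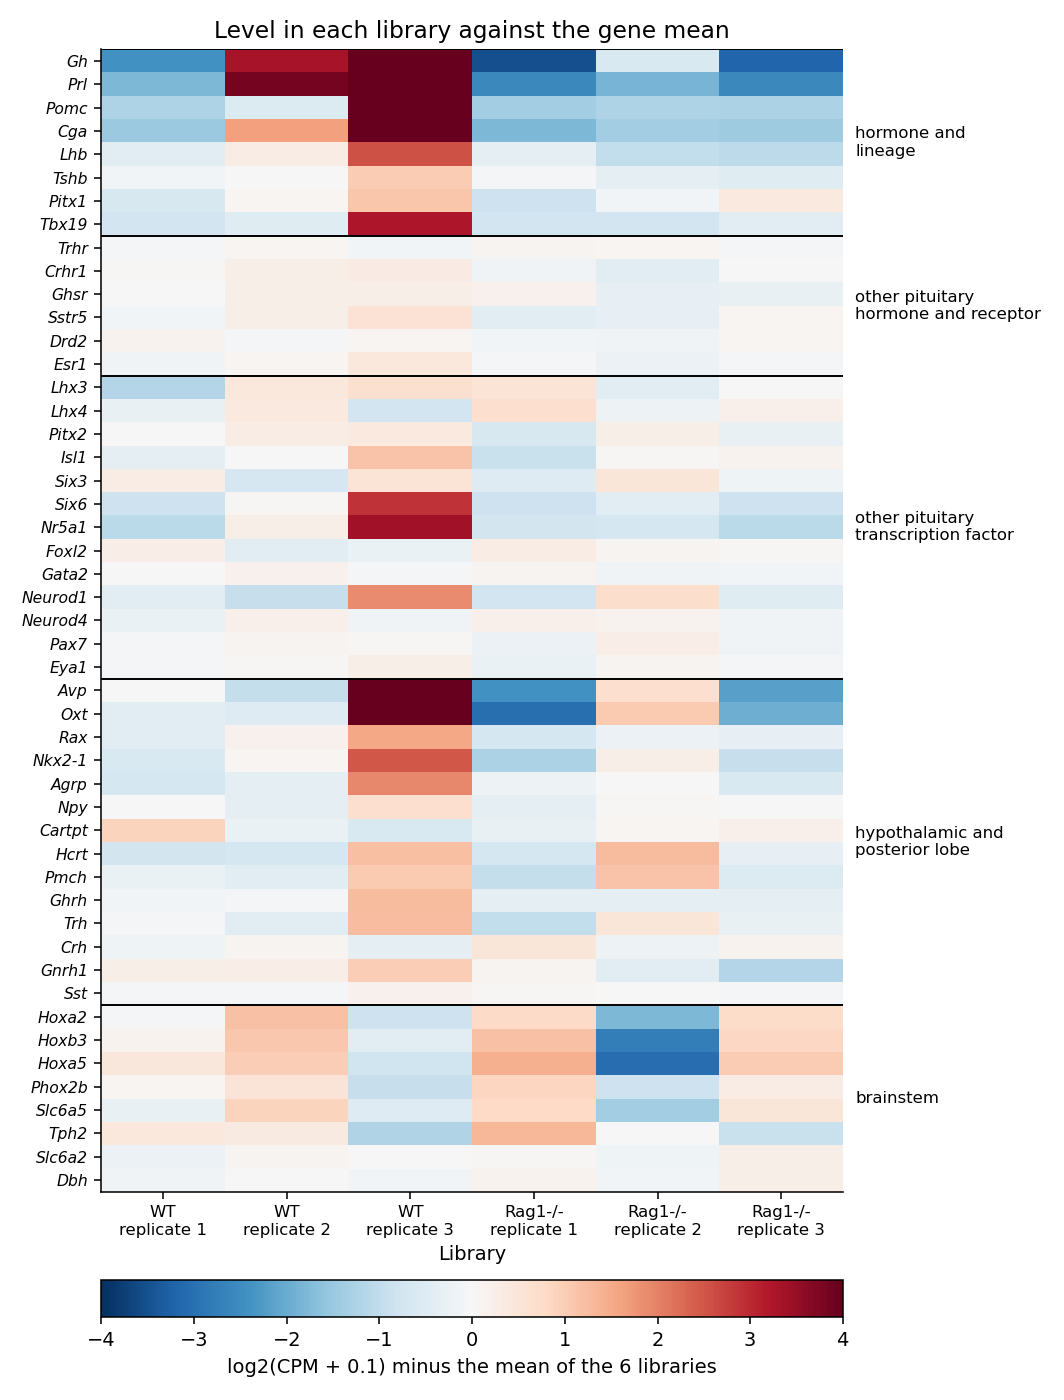
Level of each gene in each library as log2(CPM + 0.1) minus the gene's mean over the 6 libraries (rows are genes grouped by list, columns are libraries, colours end at -4 and 4). Gh and Prl are high in WT replicates 2 and 3, whereas Avp and Oxt are high in WT replicate 3, where they reach 85.2 and 31.8 CPM.

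Transcripts of other tissues that adjoin the brainstem were also unevenly spread. Marrow granulocyte genes followed the order of Gh at the top, with summed levels of 5.62, 12.5 and 18.5 CPM for WT replicates 1, 2 and 3 and 3.41, 3.99 and 6.09 CPM in the labelled Rag1-/- libraries. The calprotectin gene S100a9 was at 1.98, 4.61 and 6.96 CPM in WT and 0.982, 1.27 and 1.94 CPM in the labelled Rag1-/- libraries, and S100a8 had the same highest and second highest library. Of the 7 tested marrow genes, 5 had an unadjusted p under 0.05, all lower in the labelled Rag1-/- libraries, compared with 9.29% of all genes in this direction, and 0 passed adjustment by limma-trend, compared with 0.0477% of all genes. Bone genes summed to 37.9 to 51.5 CPM in WT and 25.9 to 34.3 CPM in the labelled Rag1-/- libraries, with Col1a1 at 38.6 CPM in WT replicate 3 and 17.7 to 26.6 CPM elsewhere and Dmp1 highest in WT replicate 2 at 6.61 CPM. Of 6 bone genes, 5 had an unadjusted p under 0.05, all lower, beside the same 9.29% and 0.0477% of all genes, and 0 passed adjustment. The part of bone and marrow in the pituitary transcripts was not tested.

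Skeletal muscle genes summed to 4.42 to 11.2 CPM in WT and 3.47 to 4.25 CPM in the labelled Rag1-/- libraries. The largest share was Mybpc1 at 6.38 CPM in WT replicate 3, compared with 0.318 to 1.04 CPM elsewhere, whereas Acta1 spanned only 1.72 to 2.72 CPM. Pineal genes, such as Sag and Tph1, summed to 0.539 to 2.01 CPM in WT and 0.542 to 0.729 CPM in the labelled Rag1-/- libraries. WT replicate 1 was highest for both Sag and Tph1, whereas WT replicate 3 was highest for the other 2 of the 4 tested pineal genes. Choroid plexus genes, led by Ttr and Kl, summed to 959, 1211 and 473 CPM in WT and 543 to 618 CPM in the labelled Rag1-/- libraries, so that WT replicate 3 was the lowest. Genes of sensory ganglion and peripheral nerve, over the 8 reported here, summed to 73.4, 83.8 and 82.6 CPM in WT and to 96.9, 61.4 and 90.7 CPM in the labelled Rag1-/- libraries, so that labelled Rag1-/- replicate 1 was the highest. The myelin gene Pmp22 made up most of this sum, at 47.0 to 73.6 CPM. By limma-trend 0 genes of these 4 lists passed adjustment. An unadjusted p under 0.05 was found for 1 of 8 muscle, 1 of 4 pineal, 1 of 6 choroid plexus and 1 of 6 nerve genes, all lower in the labelled Rag1-/- libraries, compared with 9.29% of all genes in this direction. None of these 4 lists had WT replicates 3 and 2 as its highest and second highest library.

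The genes whose profile over the 6 libraries was most like that of the pituitary transcripts were Hdc, Slc47a1, Hmx2, Bsx, Rax, Nr5a1, Spint1, Six6, Nkx2-4 and Asb11. Likeness was measured as Pearson's r between log2(CPM + 0.1) and the mean centred profile of the 8 transcripts, and ran from 0.983 for Hdc to 0.970 for Asb11 over 6 libraries, among genes spanning at least 1 on the log2 scale. These values describe a ranking over 6 points, of which WT replicate 3 is the highest for all 10 genes. Hdc, the histidine decarboxylase that makes histamine, was at 3.37, 5.75 and 15.6 CPM in WT and 2.08, 2.88 and 2.11 CPM in the labelled Rag1-/- libraries. The homeobox gene Bsx was at 0.366 CPM in WT replicate 2 and 1.03 CPM in WT replicate 3, with at most 0.0635 CPM elsewhere. Rax, a retinal and hypothalamic homeobox gene, was at 0.118, 0.237 and 0.776 CPM in WT and at 0.0867, 0.159 and 0.142 CPM in the labelled Rag1-/- libraries. Without WT replicate 3, 6 of the 10 no longer spanned 1 on the log2 scale, and r of the other 4 ran from 0.844 to 0.979. Within the pituitary transcripts, r of each with the mean of the other 7 ran from 0.778 for Pitx1 to 0.995 for Cga.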

How the data were processed

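Total RNA of whole brainstem was sequenced on an Illumina HiSeq from 3 WT and 3 Rag1-/- mice, described as independent in the labels, so p-values rest on the spread between these mice. Per the labels and methods, the authors aligned reads to mm10 with STAR 2.5.3a, counted RefSeq genes and deposited CPM values, to each of which 0.0001 had been added. Coordinates are those deposited, with the end 1 base before the deposited stop, as in 70.9% of 10267 genes that share their start with RefSeq.

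From these values, log2(CPM + 0.1) was tested with limma-trend (limma 3.58.1, R 4.3.3) in the 16762 genes whose mean reached 0.1 CPM, with Benjamini-Hochberg adjustment, and the code was checked on simulated data. Steps between low values gave the CPM of 1 read. Of these values, 85.1 to 86.6% were whole reads within 0.1, so no count test was run. Of the 48 values of the pituitary transcripts, 46 were whole. Lengths are those of the longest GENCODE transcript with a curated RefSeq mRNA. Python 3.11.15 and scipy 1.17.1 were used.

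The 10 genes and all lists were chosen with earlier results of these data known. Named genes were the 10, the 3 genes of widest range and any called gene of each pituitary list, the 2 most abundant of each neighbouring tissue list, and the 10 most alike. Some listed genes are not reported here. Any others were named after their values were seen. The fit was repeated with changed pseudocount, filter, scaling, variance model and covariates, and without single libraries.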

Additional observations from a re-analysis of the deposited data

How the results depend on the processing

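With 8 genes called over the whole table (6 lower and 2 higher with the Rag1-/- label), the count was 4 with a pseudocount of 0.01, with no filter and with a mean of at least 1 CPM, 5 with quantile normalization, 2 without the trend and 0 with ordinary variance per gene, where 1399 genes were lower and 373 higher at an unadjusted p under 0.05. It was 134 with a term for Xist over 100 CPM, a fit in which WT replicate 3 is the only WT library compared with those labelled Rag1-/-. Leaving out each library gave 2 to 24 genes, with 24 without WT replicate 3 and 2 without labelled Rag1-/- replicate 1 or 3, and leaving out WT replicates 2 and 3, chosen after seeing the data, gave 21. Median-of-ratios scaling gave 3 lower and 3 higher, and quantile normalization 3 lower and 2 higher. At an unadjusted p under 0.05 the split was 1558 lower and 380 higher, 696 and 834 with median-of-ratios scaling and 640 and 855 with quantile normalization. With the replicate number as a block, 3 genes were called. Same-numbered libraries did not deviate together (r of 0.093, -0.220 and -0.018), and the numbers were not used as pairs in the main fit. With 3 libraries per group that also differ in other ways, this check cannot exclude that same-numbered samples were handled together.

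Other pituitary genes called stayed at 0 except with the Xist term, where 2 passed, Nr5a1 at -4.18 and Six6 at -3.61. The log2 ratio of mean summed CPM, labelled Rag1-/- over WT, was -5.95. It was -6.53 to -2.98 when each library was left out, with -2.98 without WT replicate 3, and 0.12 without WT replicates 2 and 3. Signs turned without WT replicate 3 for Pitx1 (-0.77 to 0.11 over the libraries left out, from -0.35 with all) and Neurod1 (-0.92 to 0.48, from -0.37), and without WT replicates 2 and 3 for Pitx1 (0.48), Neurod1 (0.23) and Esr1 (0.00624). The 10 most alike genes shared 3 with the choice at a pseudocount of 1 and 1 without WT replicate 3. By Spearman's rho 6 genes tied at the highest value, and 1 of the 10 was among them.

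The edgeR test on recovered reads was not run, because too few values were whole. The WT mean of the pituitary transcripts rests on WT replicate 3. Depth limits Prl, Cga, Tbx19 and Lhb, which were at or under 3 reads in 4, 4, 5 and 2 libraries.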
